A study of Mus musculus with 4 samples.

Results

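Among the sites that BCL6 occupied in mouse adipocyte nuclei, those at promoters are described here: every peak of the authors' inguinal and perigonadal lists whose centre lay at most 1000 bp from the nearest annotated transcription start site, by the distance that the authors deposited. That took in 126 of 1785 inguinal peaks and 246 of 3956 perigonadal peaks, 372 of 5741 in all. Together they fell at the start sites of 328 genes. All libraries came from C57BL/6 mice of the genotype Adipoq-Cre;Sun1-sfGFP-myc, in which a Cre recombinase driven by the adipocyte gene Adipoq switches on a myc-tagged nuclear membrane protein. Nuclei of inguinal (subcutaneous) and perigonadal (visceral) fat were collected on c-myc beads after crosslinking, and their chromatin was precipitated with a polyclonal BCL6 antibody that was custom-made in guinea pig. Each depot had 1 BCL6 library, and the 2 input libraries were not analysed here. The sources used here give no age or sex of the mice and do not say how many contributed to a library. With 1 library per depot no test between depots was possible. The lists hold no expression values, and so few genes have a promoter peak that the labelled cell type could not be checked from them. Of 10 adipocyte marker genes Cidec and Lep had an inguinal promoter peak, neither above 12 tags, and none a perigonadal one. The 6 macrophage, 6 lymphocyte, 5 endothelial, 5 fibroblast and preadipocyte and 5 epithelial marker genes had none in either list.

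BCL6 is a zinc finger protein that lowers transcription by bringing corepressors and histone deacetylases to DNA. It was first known from B cells and T cells, where it holds the germinal centre programme in place. In liver and fat it is known to act against genes of growth hormone signalling and of lipid handling. Its zinc fingers read a site close to the one bound by the STAT factors that cytokine receptors activate, so that both kinds of protein can meet at the same promoter. A promoter holds the start site of a gene with the sequence just before and after it, and a factor found there lies next to the transcription machinery itself.

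The sequences below show stretches of promoter peaks with and without a STAT-type site in the part read, for peaks of different height and sharing. Each is the part of a peak that lay inside the promoter window that RefSeq gives on GRCm38.p6 (the mm10 chromosomes), read on the strand of the gene and ended 30 bases past the start site. Capitals mark matches to TTCNNNGAA, the STAT-type site, on either strand. That pattern reads the same on both strands, and every TTCCTAGAA, the core of the BCL6 site, is also a match to it. The first 7 peaks were found in both depots and hold a match. They are Cish (chr9:107296596-107296688, plus strand), Scfd2 (chr5:74531799-74531983, minus strand), Gbp7 (chr3:142530095-142530279, plus strand), B930025P03Rik (chr8:10882519-10882703, minus strand), Igfals (chr17:24878061-24878245, plus strand), Shq1 (chr6:100671174-100671358, minus strand) and Zfp719 (chr7:43579336-43579491, plus strand). Rrn3 (chr16:13780495-13780679, plus strand) had a perigonadal peak alone and Dhx35 (chr2:158794557-158794684, plus strand) an inguinal peak alone, and both hold TTCCTAGAA, Dhx35 on the strand shown and Rrn3, like Zfp719, on the opposite strand. Scfd2 and Igfals also hold it on the strand shown. Psmc6 (chr14:45329574-45329737, plus strand) and Wrnip1 (chr13:32801780-32801884, plus strand) are shown because they were among the tallest shared promoter peaks and hold no match in the part read. For Wrnip1 that part is 105 bases of a peak that starts at 32801700, and the rest of the peak was not read. The stretch for Dhx35 belongs to the inguinal peak and the others to the perigonadal peak.
Cish: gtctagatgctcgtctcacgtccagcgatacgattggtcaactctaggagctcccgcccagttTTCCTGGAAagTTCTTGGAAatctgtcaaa
Scfd2: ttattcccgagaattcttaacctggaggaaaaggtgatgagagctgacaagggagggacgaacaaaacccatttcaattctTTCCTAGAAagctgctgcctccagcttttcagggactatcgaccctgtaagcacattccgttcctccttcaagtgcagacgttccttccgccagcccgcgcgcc
Gbp7: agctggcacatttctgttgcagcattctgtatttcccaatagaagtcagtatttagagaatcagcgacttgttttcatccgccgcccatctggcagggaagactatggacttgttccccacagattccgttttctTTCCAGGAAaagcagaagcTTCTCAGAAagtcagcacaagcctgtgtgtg
B930025P03Rik: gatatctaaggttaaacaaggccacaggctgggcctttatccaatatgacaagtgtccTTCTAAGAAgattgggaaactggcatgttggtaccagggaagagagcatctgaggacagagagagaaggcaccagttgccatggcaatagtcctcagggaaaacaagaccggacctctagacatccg
Igfals: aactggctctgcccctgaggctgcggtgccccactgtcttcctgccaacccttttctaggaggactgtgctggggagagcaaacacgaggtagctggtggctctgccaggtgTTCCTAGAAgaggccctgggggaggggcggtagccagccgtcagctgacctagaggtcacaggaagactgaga
Shq1: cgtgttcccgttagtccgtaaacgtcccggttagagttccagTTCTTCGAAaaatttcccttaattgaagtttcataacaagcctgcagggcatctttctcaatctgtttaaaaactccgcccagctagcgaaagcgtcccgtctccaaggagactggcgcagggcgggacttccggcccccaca
Zfp719: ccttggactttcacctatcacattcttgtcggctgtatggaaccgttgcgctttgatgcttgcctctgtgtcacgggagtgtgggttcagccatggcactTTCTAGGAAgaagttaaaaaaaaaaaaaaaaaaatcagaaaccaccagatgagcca
Rrn3: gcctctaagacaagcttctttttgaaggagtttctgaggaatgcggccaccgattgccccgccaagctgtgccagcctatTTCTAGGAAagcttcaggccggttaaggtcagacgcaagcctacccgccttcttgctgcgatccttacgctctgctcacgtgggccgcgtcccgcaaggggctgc
Dhx35: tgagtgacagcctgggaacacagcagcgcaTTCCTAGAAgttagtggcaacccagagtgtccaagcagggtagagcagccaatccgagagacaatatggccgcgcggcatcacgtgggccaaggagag
Psmc6: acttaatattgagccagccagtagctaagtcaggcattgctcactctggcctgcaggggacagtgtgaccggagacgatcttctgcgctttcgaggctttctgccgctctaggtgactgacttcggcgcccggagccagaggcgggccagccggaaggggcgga
Wrnip1: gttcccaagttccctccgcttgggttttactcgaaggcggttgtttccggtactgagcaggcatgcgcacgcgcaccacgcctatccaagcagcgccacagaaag

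The score of a peak is the authors' value for its height, and it is used here to describe and rank peaks within 1 list. All scores of a list were whole multiples of 1 value, which was read as 1 sequenced tag after scaling. It was 0.752 for the inguinal list and 0.882 for the perigonadal list. The total number of reads is unknown. Per the file headers the inguinal peaks passed a false discovery rate of 0.001, while no threshold is named for the perigonadal peaks, so a count of peaks cannot be compared between the depots as an amount of binding. A site without a partner is a site at which the other list calls no peak.

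Promoters were a small part of each list and held some of its tallest peaks. Of the inguinal peaks 7.06% were promoter peaks, with a Wilson 95% interval of 5.96 to 8.34. Of the perigonadal peaks 6.22% were, with 5.51 to 7.01. The interval, like those that follow, covers counting error only. Of the 10 tallest peaks in each list 3 lay at a promoter, and of the 20 tallest 5 did. Among the 200 tallest they were 25 in the inguinal list, or 12.5% (8.61 to 17.8), and 29 in the perigonadal list, or 14.5% (10.3 to 20.05). Both intervals lie above the share of promoters in the list as a whole.

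**Figure D1:**
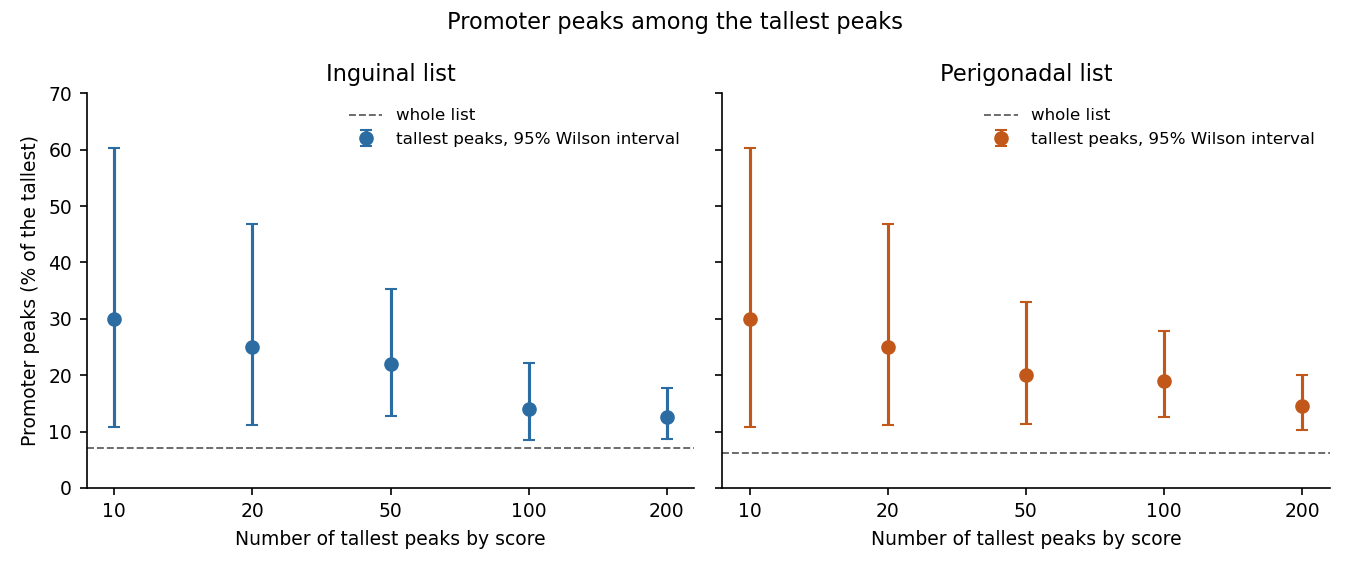
Share of promoter peaks (vertical axis, percent) among the 10, 20, 50, 100 and 200 tallest peaks of each list (horizontal axis). Points are shares, bars are Wilson 95% intervals and the dashed line is the share in the whole list; the share is 30% among the 10 tallest in both lists and 12.5% and 14.5% among the 200 tallest.

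Promoter peaks were somewhat higher than the other peaks of their list. The median score of promoter peaks was 9.78 against 9.03 for all other inguinal peaks, and 9.70 against 8.82 in the perigonadal list. Peaks of more than 12 tags were 68 of 126 inguinal promoter peaks, or 54.0% (45.3 to 62.4), against 40.4% of the other inguinal peaks (38.05 to 42.8), with 41.3% in the whole list. Among perigonadal promoter peaks they were 78 of 246, or 31.7% (26.2 to 37.8), against 23.5% of the others (22.2 to 24.9), with 24.0% in the whole list. Above 30 tags stood 14.3% of the inguinal and 9.35% of the perigonadal promoter peaks, against 6.15% and 3.07% of the others. The lowest scores of the lists were 6.77 and 5.29.

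Within the window the peaks were densest near the start site, and somewhat more of them lay before it than after it. The inguinal peaks had a median position 62 bp upstream, and 72 of 126, or 57.1% (48.4 to 65.4), lay upstream. The perigonadal peaks had a median position 56.5 bp upstream, and 136 of 246, or 55.3% (49.0 to 61.4), lay upstream. Both intervals include an even split. The excess before the start site came mainly from a band 101 to 250 bp away, in which 21 of 28 inguinal and 44 of 64 perigonadal peaks were upstream. Within 100 bp of the start site the numbers were 16 of 34 and 19 of 44, so in neither list did most of the nearest peaks lie before it.

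The density of inguinal peaks fell or held level with distance, while that of perigonadal peaks fell to 500 bp and varied beyond. Per 100 bp of distance, counting both sides, the inguinal list had 34 peaks within 100 bp, 18.7 from 101 to 250 bp, 9.6 from 251 to 750 bp and 6.4 from 751 to 1000 bp. Outside the promoter window it had 5.6 from 1001 to 2000 bp and 3.83 from 2001 to 5000 bp. The perigonadal list had 44 and 42.7 in the innermost bands, then 16.8, 18.4 and 20, and outside the window 13.9 and 9.97. In both lists the peaks concentrated within 250 bp, which held 62 of the 126 inguinal and 108 of the 246 perigonadal promoter peaks. The outer bands of the perigonadal window stood only a little above the density beyond it.

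**Figure D2:**
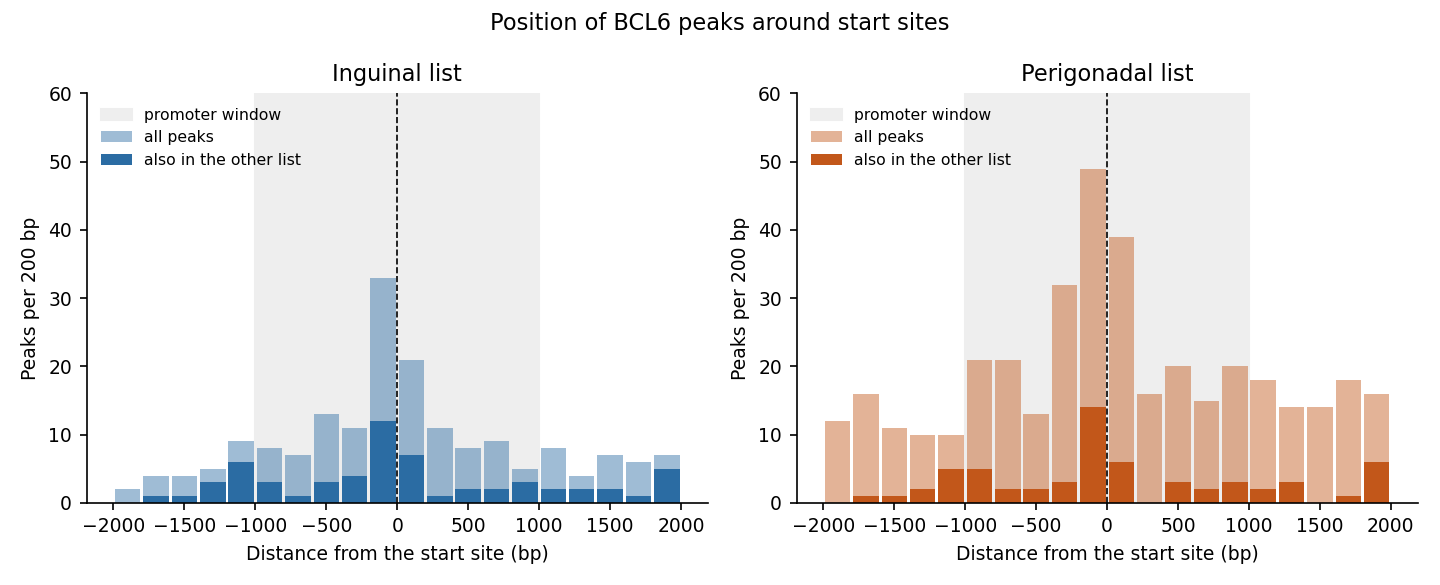
Number of peaks per 200 bp (vertical axis) by distance from the start site in bp (horizontal axis, negative is upstream) for each list. Light bars are all peaks, dark bars those also found in the other list, and the grey band is the promoter window; the 200 bp before the start site hold the most peaks in both lists, 33 inguinal and 49 perigonadal.

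The taller promoter peaks had the smaller median distance from the start site. In the perigonadal list the median absolute distance was 212.5 bp for peaks of more than 12 tags and 407 bp for those of up to 12 tags, and 62.8% (51.7 to 72.7) against 51.8% (44.3 to 59.2) lay upstream. In the inguinal list the same medians were 207 and 315 bp, and the shares upstream 60.3% (48.4 to 71.1) and 53.4% (40.8 to 65.7). The intervals of the shares overlap in both lists. At the edge of the window the peaks were mostly low. Just inside it lay the inguinal peaks of Hif1a, which encodes the oxygen-regulated factor HIF-1 alpha, at -942 bp with a score of 6.77, and of Kcnj2, a potassium channel gene, at -959 bp with 9.78. Just outside it lay those of Heatr6 at -1004 bp with 7.52 and of Atrnl1 at -1010 bp with 24.8. In the perigonadal list the histone genes Hist2h2aa2 (-981 bp, score 9.70) and Hist2h4 (988 bp, 8.82) were the last inside, and Celsr3 (1006 bp, 8.82) and 1110036E04Rik (1014 bp, 12.3) the first outside.

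By the authors' annotation 94 inguinal and 177 perigonadal promoter peaks were labelled as promoter, and the rest fell in first parts of the gene or in a neighbour. Introns took 20 and 41, exons 2 and 12, the 5' UTR 3 and 9, a transcription end site 6 in each list and a non-coding transcript 1 in each. The annotation names CpG islands and repeats only for peaks with another label than promoter, so that these can be counted for 32 and 69 members alone. A CpG island was named for 5 of the 32 inguinal peaks, or 15.6% (6.86 to 31.8), against 0.362% (0.166 to 0.787) of the peaks outside the window, with 0.616% in the whole list. The perigonadal count was 12 of 69, or 17.4% (10.2 to 28.0), against 0.404% (0.245 to 0.666), with 0.683% in the whole list. Repeats showed the reverse. None of the 32 and 3 of the 69, or 4.35% (1.49 to 12.02), lay in an annotated repeat, against 22.7% and 25.6% of the peaks outside the window.

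Sharing of promoter peaks between the depots was read from overlap of at least 1 bp. In the inguinal list 38 of 126 promoter peaks, or 30.2% (22.8 to 38.7), overlapped a perigonadal peak, where 28.5% of all inguinal peaks did. Of the perigonadal promoter peaks 40 of 246, or 16.3% (12.2 to 21.4), overlapped an inguinal peak, where 12.8% of all perigonadal peaks did. Both shares are near those of the lists as a whole. The overlaps form 40 pairs, each with the same nearest gene in both lists. In 38 pairs both peaks lay in the window. The pairs at Atrnl1 and Mitf straddled its limit, with the perigonadal peak at -975 and -965 bp and the inguinal peak at -1010 and -1042 bp. The peaks of a pair had centres 26.5 bp apart at the median (range 1 to 127), within 50 bp in 31 of 40. In 25 pairs both peaks were upstream of the start site and in 14 both were downstream. At Cish the centres were 13 bp apart, and the authors' distances of 42 and -1 bp refer to different start sites.

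The tallest shared promoter peak lay at Socs2, which encodes an inhibitor of growth hormone and cytokine receptor signalling. Its inguinal peak was centred 55 bp upstream and scored 200.1 (Poisson 95% interval 176.8 to 225.6), and its perigonadal peak was centred 48 bp upstream and scored 260.1 (231.2 to 291.5). Each was the highest of its list. Cish encodes a close relative that is induced by the factor STAT5 and dampens its signalling. Its peaks scored 65.4 and 85.5 and ranked 6 in both lists. By the lower score of the pair these were the 2 tallest shared promoters, and in the inguinal list the peak of Wrnip1 stood between them.

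The genes next in height belong to DNA repair, membrane traffic, ubiquitin tagging and innate defence. Wrnip1, a helicase-interacting protein of stalled replication forks, had scores of 71.5 and 60.8, in the order inguinal then perigonadal, at -252 and -238 bp. Scfd2, a Sec1 family gene of vesicle transport, had 50.4 and 75.8 at -92 and -149 bp. Trim6, a ubiquitin ligase of the interferon response, had 43.6 and 50.2 at 18 and 45 bp. Gbp7, an interferon-induced GTPase, had 40.6 and 42.3 at -125 and -149 bp. These 4 ranked between 5 and 44 in their lists.

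Most of the other pairs among the 12 tallest lay near their start sites as well. Psmc6, an ATPase subunit of the proteasome, had scores of 38.4 and 62.6 at -175 and -179 bp. The non-coding gene 4933404O12Rik had 39.9 and 37.9 at -178 and -176 bp. Snx14, a sorting nexin, had 35.4 and 51.1. Ncoa4, which delivers ferritin to autophagy and was named as a nuclear receptor coactivator, had 37.6 and 34.4 at 72 and 109 bp, inside an intron by the authors' label. Farther away was the small nucleolar RNA gene Snora75 with 27.8 and 30.9, at 814 and 842 bp from its start site.

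The remaining 28 pairs ranged from 8.27 to 30.1 in the inguinal and from 7.93 to 52.0 in the perigonadal list. Among them were Jarid2, a partner of the Polycomb complex (30.1 and 25.6), Fam134b, an endoplasmic reticulum autophagy receptor now called Retreg1 (24.1 and 30.9), and Slc29a1, a nucleoside carrier (18.1 and 22.0). Nnt, which makes NADPH in mitochondria, had 18.1 and 15.9. Btd, biotinidase, had 15.0 and 11.5. Ccnd2, the cyclin D2 gene that BCL6 is known to repress in B cells, had 10.5 and 10.6 at -913 and -850 bp. Igfals, which encodes the acid-labile subunit of the IGF carrier complex and is a growth hormone target, had 9.03 and 14.1. Cxcl10, an interferon-induced chemokine, had 8.27 and 8.82, with its 2 peak centres 1 bp apart. Outside the 12 tallest these names were chosen after their values were seen.

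Heights went together across the pairs. On log2 scores, Pearson's r over the 40 pairs was 0.93 and Spearman's rho 0.90, against 0.76 and 0.68 over all 508 shared pairs. These are descriptions over sites of the same 2 libraries. The 508 include the 40, and tall peaks were a larger part of the promoter peaks. The higher values are therefore not read as closer agreement at promoters. Of the 40 pairs 30 had more than 12 tags in both lists, 17 had more than 30 in both, and 10 rested on up to 12 tags in at least 1 list.

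**Figure D3:**
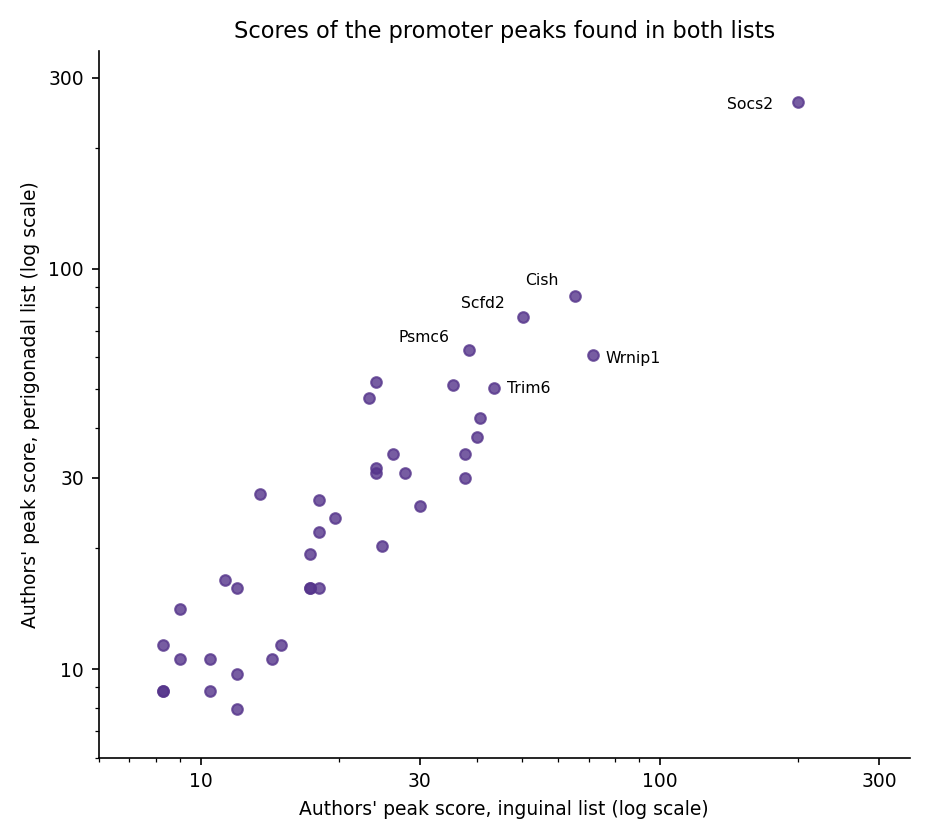
Authors' peak score in the inguinal list (horizontal, log scale) and the perigonadal list (vertical, log scale) for the 40 pairs of promoter peaks found in both lists; each point is 1 pair and 6 are named. Socs2 stands apart at 200.1 and 260.1, and the lowest pairs lie near 8 on both axes.

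Whether a promoter peak had a partner went with its height. All 18 inguinal promoter peaks of more than 30 tags had one (82.4 to 100%), and 18 of 23 perigonadal ones did, 78.3% (58.1 to 90.3). The other peaks of that height had 93.1% (86.5 to 96.6) and 87.7% (80.4 to 92.5). At the low end, none of 26 inguinal promoter peaks of up to 10 tags had a partner, which allows a share of up to 12.9% by the Wilson interval, and 4 of 99 perigonadal ones did. Between these, at 13 to 30 tags, 16 of 50 inguinal promoter peaks had a partner, or 32.0% (20.8 to 45.8), beside 54.0% (49.9 to 58.1) of the other inguinal peaks of that height. The intervals do not overlap. In the perigonadal list 14 of 55, or 25.5% (15.8 to 38.3), stood beside 37.2% (33.8 to 40.7), and there the intervals overlap. That class was formed after the values were seen, and the difference was not tested. Without the peaks in annotated repeats the other peaks had 56.3% and 37.0%. The median number of tags within the class was 15.5 at inguinal promoters and 17 elsewhere, and 17 and 16 in the perigonadal list.

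**Figure D4:**
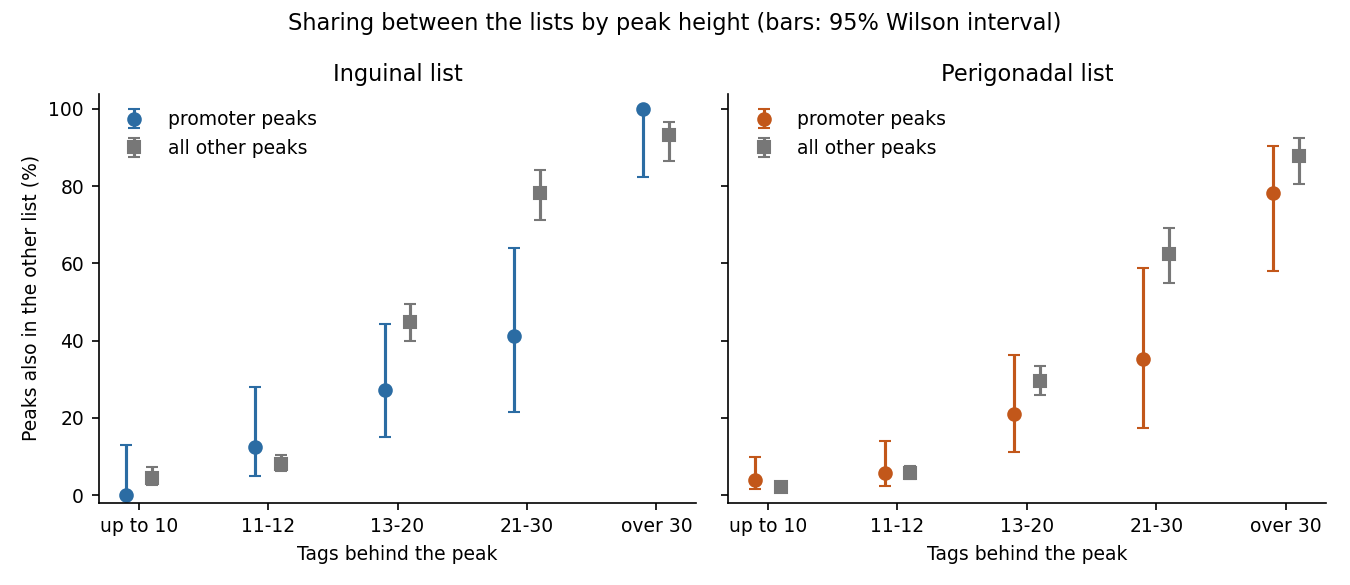
Percent of peaks that overlap a peak of the other list (vertical axis) by number of tags behind the peak (horizontal axis), for promoter peaks (coloured circles) and all other peaks (grey squares) of each list; bars are Wilson 95% intervals. Sharing goes from under 13% at up to 12 tags to 100% and 78.3% of promoter peaks over 30 tags, and in the classes of 13 to 20 and 21 to 30 tags promoter peaks sit below the other peaks in both lists.

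No partner was called for 88 inguinal promoter peaks, 34 of them of more than 12 tags. The tallest was at Cmtm2a, a chemokine-like membrane protein gene, with a score of 21.8 (14.6 to 31.3) at -749 bp. Gbp3, another interferon-induced GTPase, followed with 21.1 at -14 bp. Il6ra, the receptor for interleukin 6, had 20.3 at -42 bp, and a perigonadal peak lay 10.8 kb away. Pkn2, a protein kinase gene, and Raly, an RNA-binding protein gene, each had 19.6, at -502 and -532 bp. Irf2bp2, a partner of the interferon factor IRF2, had 18.8 at -512 bp, and the nearest perigonadal peak was centred only 0.722 kb away. Hspe1, the mitochondrial chaperonin, had 17.3 at 42 bp and Mettl13, a lysine methyltransferase of a translation factor, 17.3 at -190 bp. For these 8 the lower Poisson limits ran from 10.97 to 14.6, and the median score of the list was 9.03. The 8 were chosen as the tallest, so limits above the median do not speak for a difference between the depots.

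The perigonadal list had 206 promoter peaks without a partner, 46 of them of more than 12 tags. Slc39a10, a zinc importer, had the tallest with a score of 36.1 (25.9 to 49.0) at -129 bp, and the nearest inguinal peak was 2277 kb away. Commd5, a gene of the endosomal COMMD family, had 34.4 at 820 bp, and Zfp113, a zinc finger gene, 32.6 at -52 bp. Rpia, an enzyme of the pentose phosphate pathway, had 28.2 at -245 bp. Acot1, which splits long-chain acyl-CoA, had 27.3 at -335 bp. Osbpl1a, an oxysterol-binding protein gene, had 26.4 at 867 bp. Nfil3, a repressor of the clock output and a regulator of lymphocytes, had 23.8 at 482 bp, and Ttc41 had 23.8 at -43 bp.

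Missing partners were seldom a small shift of position. A peak of the other list lay within 1 kb of 1 of the 88 inguinal and 1 of the 206 perigonadal promoter peaks without a partner, within 5 kb of 6 in each list, and within 50 kb of 27 and 28. For 19 inguinal and 17 perigonadal ones the same gene had another peak in the other list, within 50 kb of its start site. Lhx3, a homeobox gene of pituitary and motor neurons, was the 1 gene with promoter peaks in both lists that did not overlap, at 13 bp (8.27) and 61 bp (10.6) from separate start sites of the gene. Few genes had more than 1 promoter peak in a list. They were Tldc2 in the inguinal list, with scores of 9.03 and 8.27 at 0 and 862 bp, and 4 genes in the perigonadal list. Nfil3 had 23.8 and 13.2 at 482 and -226 bp, Commd5 had 34.4 and 14.1 at 820 and -118 bp, Col22a1, a collagen gene, had 47.6 and 12.3 at 99 and -667 bp, and Phlpp2, a phosphatase of the kinase AKT, had 8.82 at both -557 and 21 bp.

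Of 21896 protein-coding genes that RefSeq lists, 114 had an inguinal promoter peak, 0.521%, and 221 a perigonadal one, 1.01%. With more than 12 tags there were 60 and 68, or 0.274% and 0.311%. For 33, or 0.151%, promoters were occupied in both lists. Counts in gene lists are read against these shares, with no test. STAT5 and cytokine signalling held 4 of 36 genes in the inguinal list and 3 of 36 in the perigonadal list, 11.1% and 8.33%. They were the inhibitors Socs2 and Cish and the secreted carrier Igfals in both, and the receptor Il6ra in the inguinal list. Other members of the list, among them the remaining SOCS genes, the STAT genes, the JAK kinases and the growth hormone receptor, had no promoter peak. That list was put together with the heights of Socs2 and Cish known. Its count rests on 12 tags or fewer at Igfals in the inguinal list.

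The counts of the next lists stand beside 0.521% of all protein-coding genes in the inguinal list and 1.01% in the perigonadal list. The lists are short and were chosen with earlier results of these data known. Interferon response genes had 2 of 27 in the inguinal list, Gbp7 and Gbp3, and 1 of 27 in the perigonadal list, Gbp7. Among 31 genes of inflammation and chemokines the inguinal list had Cxcl10 (8.27) and Lcn2 (7.52), which encodes an iron-binding protein secreted by inflamed fat, and the perigonadal list had Cxcl10 (8.82). Of 27 genes that BCL6 is known to control in B and T cells, Ccnd2 had a promoter peak in both lists. Id3, an inhibitor of helix-loop-helix factors, had one in the perigonadal list (8.82). The promoters of the 25 listed corepressor and histone deacetylase genes held none in either list, which is not a low count at the shares of all protein-coding genes. That list did not include Jarid2, Irf2bp2 or Tle3, which had promoter peaks, so its count does not stand for all corepressors. Cell cycle and DNA damage genes had 2 of 39 in each list, Wrnip1 and Ccnd2.

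Adipocyte identity genes had 2 of 24 in the inguinal list, 8.33% beside 0.521% of all protein-coding genes, both of low score. Cidec, which enlarges lipid droplets, had an inguinal peak with a score of 9.03, and Lep, the gene of the hormone leptin, one of 7.52. None of the 24 had a perigonadal promoter peak. Acsl1, which activates long-chain fatty acids, had an inguinal peak (11.3 at -892 bp), the single one among 28 genes of fatty acid synthesis. Pdk4, which holds pyruvate back from oxidation, had a perigonadal peak (8.82 at -358 bp), the single one among 24 genes of fatty acid oxidation and mitochondria. None of 18 lipolysis genes and none of the 26 listed extracellular matrix genes had one. In lists this short, none is not a low count at the shares of all protein-coding genes. The matrix list did not include the collagen gene Col22a1, with a shared promoter peak (23.3 and 47.6). Nor did it include Adamts1, with an inguinal one (7.52), so its count does not stand for all matrix genes. Among 34 insulin signalling genes Trib1, a pseudokinase, had a perigonadal peak (8.82), and among 23 clock genes Nfil3 did. Apart from Nfil3, Acsl1 and Col22a1 the peaks named in this paragraph rested on up to 12 tags.

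Large gene families had promoter peaks at about the share of all protein-coding genes, with some exceptions. Zinc finger genes had 3 and 5 of 467, or 0.642% and 1.07%, with Zfp113 the tallest. Solute carrier genes had 2 and 4 of 375, or 0.533% and 1.07%. They were the nucleoside carrier Slc29a1 in both lists, the anion transporter genes Slc26a7 (7.52, inguinal) and Slc26a6 (11.5, perigonadal), the zinc importer Slc39a10, and Slc9a3r1, whose product is a scaffold and not a carrier (10.6, perigonadal). Proteasome genes had 3 of 51 in the inguinal list, or 5.88%: Psmc6, Psmd3 (17.3), a lid subunit, and Psme4 (7.52), an activator. Psmc6 was the 1 of 51 in the perigonadal list. Ubiquitin ligase, adaptor and deubiquitinase families had 1 and 6 of 375, with Trim6 in both lists. Histone genes had 1 and 3 of 78. Olfactory and vomeronasal receptor genes had none of 1465 in the inguinal list and 2 in the perigonadal list, or 0.137%. Ribosomal protein genes of the cytosol had none and 2 of 100, and nuclear receptor genes none of 44 in either list.

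Read by hand after the values were seen, the genes fall into groups of function that do not cover all of them. The counts per group are to be read beside those of all 328 genes. Of these 203, or 61.9%, had a promoter peak in the perigonadal list alone, 86 in the inguinal list alone and 39 in both. Enzymes of mitochondria and intermediary metabolism were the largest group, with 30 genes. Of these 13 were in the inguinal list alone and 15 in the perigonadal list alone, and Nnt and Btd had a shared peak. In the inguinal list they included Gclm, the modifier subunit of the enzyme that starts glutathione synthesis (16.5), Fah, the last enzyme of tyrosine breakdown (11.3), and Polg, the mitochondrial DNA polymerase (9.78). The perigonadal ones included Rpia, Acot1, Acy1, an aminoacylase (13.2), and Cox6c, a subunit of cytochrome oxidase (11.5). The next group, sequence-specific transcription factors and cofactors, had 18 genes. Of these 14 had a promoter peak in the perigonadal list alone, 3 in the inguinal list alone, and Lhx3 in both. Mitf, one of the 14, had an overlapping inguinal peak outside the window. Nfil3 and Irf2bp2 were the 2 of the 18 that exceeded 12 tags. Egr2, Batf, Fosl1, Etv6 and Tle3, all perigonadal, scored between 7.93 and 9.70.

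Shared peaks in the groups below stand beside the 39 of all 328 genes that had promoter peaks in both lists. The groups were formed after the values were seen, so their shared counts are not read as a trait of a function. Innate immunity and interferon-induced defence counted 14 genes, 4 of them with a shared peak, among them Gbp7, Trim6 and Cxcl10. Bst2, which tethers budding virus particles, had an inguinal peak at -14 bp (10.5). Il18bp, the decoy for interleukin 18, had a perigonadal peak (10.6). Membrane traffic counted 10 genes and 3 shared peaks, at Scfd2, Snx14 and Fam134b. Cytoskeleton, adhesion and small GTPase regulation counted 13 genes and 5 shared peaks, among them Ctnna1, the alpha-catenin gene (17.3 and 19.4), Srgap3 (17.3 and 15.9) and Tchp (24.1 and 31.7). Of all 328 genes 203, or 61.9%, had a promoter peak in the perigonadal list alone, and so did the small groups that follow. Calcineurin and other phosphatases counted 5 genes, none above 12 tags. They included both chains of calcineurin, Ppp3ca and Ppp3r1 (8.82 each), and its regulator Rcan1 (9.70). TGF-beta and BMP signalling counted 3 genes, the inhibitors Smad7 (9.70) and Bambi (12.3) and the receptor Bmpr1a (8.82). The perigonadal list holds more and lower peaks than the inguinal list, and no difference between the depots was tested.

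Non-coding genes owned 11 inguinal and 21 perigonadal promoter peaks. Of these 6 and 6 were shared, against 32 of 115 and 34 of 225 for protein-coding genes. MicroRNA and small nucleolar RNA genes had 6 and 7 of 1327, beside 0.25% and 0.484% of all annotated genes. Snora75, Mir148b (11.3 and 16.7) and Mir7671 (12 and 9.70) were in both lists. A small RNA of this kind lies inside or beside another gene, and its peak is named here for the nearest annotated start. Predicted and uncharacterised genes had 6 and 15 of 24092, below the share of all genes. The peaks carry gene names of the authors' annotation, and a RefSeq gene absent from it could not be counted. How many of the 24092 it holds is unknown. Neither this low share nor the shares of all annotated genes, which include the 24092, are therefore read as a measure of binding.

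Sequence could be read where a peak overlapped a RefSeq promoter window, which runs from 250 bases before to 50 after the start site. Matches were counted over the whole window, also outside the peak. An entry in the table of windows was found for 77.8% of the inguinal and 75.6% of the perigonadal promoter peaks. That is under 80%, so no statement on base composition is made for the members as a whole. The windows reached by a peak were 51 for inguinal and 87 for perigonadal peaks. Socs2 is among the genes without an entry. Where the gene had an entry, the authors' distance was within 2 bp of that to a RefSeq start for 76 of 98 inguinal and 157 of 186 perigonadal peaks. For the others the 2 sources place the peak differently. Igfals, at -617 bp by the authors in the perigonadal list, has its printed stretch from -170 to 14 by RefSeq. Positions of matches count from the RefSeq start, and all other distances are the authors'.

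TTCCTAGAA, in either orientation, stood in 5 of the 51 inguinal windows, or 9.80% (4.26 to 20.98), and in 4 of the 87 perigonadal windows, or 4.60% (1.80 to 11.2). It stood in 0.411% of all 32851 windows in the table. The 5 inguinal genes were Scfd2, Igfals, Zfp719, Dhx35 and Zfp282, and the 4 perigonadal genes Scfd2, Igfals, Zfp719 and Rrn3. Of these, Scfd2 is the 1 with a tall peak, and the scores of the others ran from 7.52 to 15.0. The wider TTCNNNGAA stood in 13 of 51 windows, or 25.5% (15.5 to 38.9), and in 19 of 87, or 21.8% (14.5 to 31.6), against 8.3% of all windows. Where the peak was shared the counts were 8 of 20, or 40.0% (21.9 to 61.3), and 8 of 19, or 42.1% (23.1 to 63.7). Without a partner they were 5 of 31, or 16.1% (7.09 to 32.6), and 11 of 68, or 16.2% (9.28 to 26.7). In some of these windows the only match lay outside the peak. They were Zcchc3 in both lists, a shared peak, Bst2 and Cast in the inguinal list, and Sec61g, 4921536K21Rik and Smlr1 in the perigonadal list.

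Several of the sequences printed above have a match near the peak centre, measured from the middle of the match. Cish has 2 matches, 4 and 15 bases past the start site, 25 and 14 bp from the perigonadal and 38 and 27 bp from the inguinal centre. Gbp7 also has 2, at -102 and -83. The single match of Scfd2 at -156 lies 7 bp from the perigonadal centre and 64 bp from the inguinal centre. That of Zfp719 lies 41 bp from the perigonadal and 3 bp from the inguinal centre. That of Dhx35 lies 8 bp from its inguinal centre, and that of Rrn3 lies 8 bp from the perigonadal centre. Over all windows reached by a peak there were 2.53 matches per 1000 bases within 25 bp of the inguinal centres and 2.37 for the perigonadal centres. From 25 to 50 bp there were 2.68 and 2.47, from 50 to 100 bp 0.588 and 0.740, and beyond 100 bp 0.372 and 0.201. All windows of the table had 0.293. The density was highest within 50 bp of the centre and came near that of all windows farther out, on counts of 15 matches at inguinal and 21 at perigonadal peaks.

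**Figure D5:**
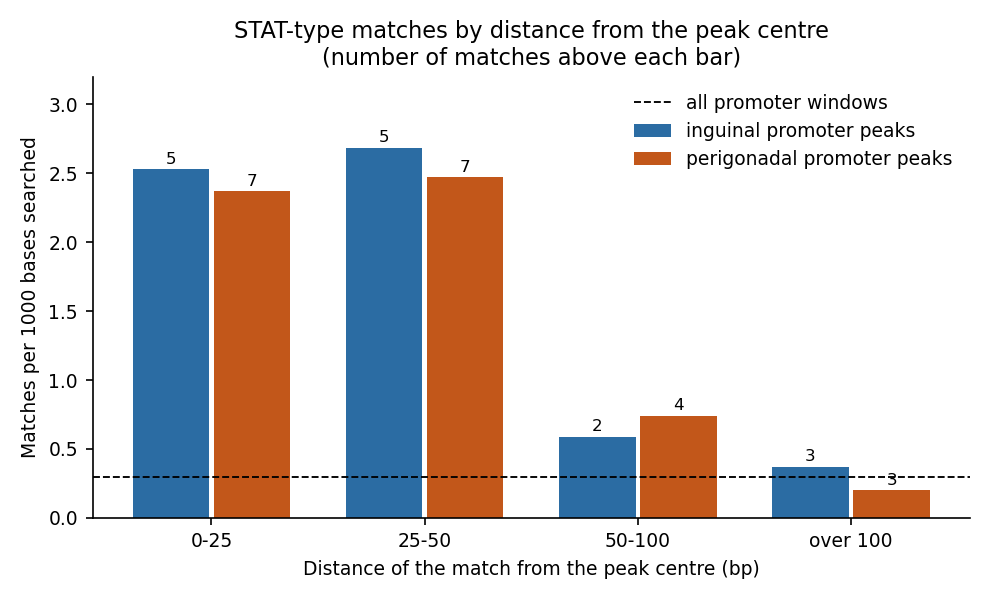
Matches to the STAT-type site per 1000 bases searched (vertical axis) by distance from the peak centre in bp (horizontal axis), in the promoter windows reached by inguinal and perigonadal promoter peaks; numbers above the bars count matches and the dashed line is the density in all promoter windows, 0.293. Bars within 50 bp of the centre stand between 2.37 and 2.68 and those beyond 100 bp at 0.372 and 0.201.

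The match was also counted apart in windows with many and with few CpG dinucleotides. A window was called CpG-rich with a GC content of at least 50% and a ratio of observed to expected CpG of at least 0.6, which 33.5% of all windows met. Among CpG-poor windows reached by a peak 39.1% of 23 inguinal (22.2 to 59.2) and 35.5% of 31 perigonadal ones (21.1 to 53.1) had TTCNNNGAA, against 9.75% of all CpG-poor windows. Among CpG-rich windows it was 14.3% of 28 (5.70 to 31.5) and 14.3% of 56 (7.42 to 25.7), against 5.42% of all such windows. Many tall peaks had no match in their window, as at Psmc6, Wrnip1, Snx14 and Trim6. The parts of these peaks that lie outside the window were not read. The E-box CACGTG stood in 11.8% (5.51 to 23.4) and 9.20% (4.73 to 17.1) of the windows reached, beside 7.15% of all, and the ETS-type CCGGAAG in 11.8% (5.51 to 23.4) and 13.8% (8.07 to 22.6), beside 8.86% of all. For these sites the intervals include the share in all windows. A match describes the letters and is not shown to be a bound site.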

How the data were processed

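BCL6 ChIP-seq peak lists of 2 libraries, 1 per depot, were analysed. Per the submitters' processing notes, Bowtie 1.2 and HOMER were used with mm10, and the lists are HOMER annotations of peaks, per the file headers. The deposited peak score is a height scaled by the authors within a list. The deposited focus ratio is a fraction that describes how tags lie about the centre, and the distance to the start site, the nearest gene and the annotation are the authors' values. The sources used here mention no pooling, and the depth of the libraries is unknown.

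Peaks were 202 bp (inguinal) and 184 bp (perigonadal) from start to end. Scores divided by their common step gave tags, with exact Poisson 95% intervals. Shares carry Wilson 95% intervals. Both cover counting error only, since no molecular identifiers mark independent molecules. Partners overlapped by at least 1 bp. Genes were matched to a RefSeq table of GRCm38.p6 by Entrez number (all 125 inguinal and 242 perigonadal genes with a promoter peak), which also restored 2 and 11 gene names of the lists that had become dates. Promoter sequences are RefSeq windows of 300 bases. Motifs were searched on both strands. Python 3.11.15 with pandas 2.3.3, NumPy 2.4.6, SciPy 1.17.1 and matplotlib 3.10.9 was used, and overlap, motif search and intervals were tested on simulated data.

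The members and gene lists were chosen with earlier results of these data known, and the groups of function after the members' values were seen. The pattern for histone genes was adapted to the symbols of the gene table. Named genes are the 12 tallest shared pairs by the lower score of the pair, the 8 tallest promoter peaks per list without a partner, up to 4 members of each gene list, the peaks nearest the 1000-bp limit, and genes with several or non-overlapping promoter peaks. All other names were picked with their values known. The alternatives changed the window, the overlap rule, list length, a minimum of more than 12 tags, autosomes and the promoter label. Members of function groups were counted once per gene. An item that the rule for named genes takes in is not reported here.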

Additional observations from a re-analysis of the deposited data

How the results depend on the processing

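Each depot had a single library and the depth is unknown, so neither animals nor libraries give an error, and a low peak can be missed in 1 list alone. No paired analysis was possible because the labels carry no replicate numbers and each depot had 1 library. Of 56 alternatives for the main comparisons 37 stayed within the interval of the reported value, or within 1.5 times of a count. Peaks of more than 12 tags numbered 68 inguinal and 78 perigonadal, and they gave 60 and 68 protein-coding genes in place of 114 and 221. They raised the share with a partner to 42.6% and 38.5%, when the other list was held to the same minimum. Holding the lists to equal length gave 24.8% for the perigonadal share. The perigonadal count was 150 within 500 bp and 385 within 2000 bp, and its protein-coding genes 138 and 343. In the class of 13 to 30 tags, formed after the values were seen, the perigonadal share with a partner was 25.5%. The perigonadal share upstream was 62.8% above 12 tags and 65.0% for shared peaks, whose median distance was -132.5 bp. For TTCNNNGAA, CpG-rich and CpG-poor windows, split after the values were seen, gave 14.3% and 39.1% in the inguinal and 14.3% and 35.5% in the perigonadal list. Among 129 recounts of single gene lists 76 stayed within 1.5 times. Of the rest, 20 were lower within 500 bp, 23 were lower above 12 tags and 10 were higher within 2000 bp. The cause was not tested, apart from the smaller or larger number of peaks that each window or minimum leaves.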

Other observations

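Chromosome X held almost none of the promoter peaks. It had 0 of 126 inguinal peaks, which allows a share of up to 2.96% by the Wilson interval, and 1 of 246 perigonadal peaks, 0.407%. In the RefSeq table it carries 4.41% of the protein-coding genes. Of the peaks outside the promoter window it had 0.844% of the inguinal and 0.782% of the perigonadal ones. The autosomes named next were picked after the values were seen, and their shares were not tested. Chromosome 8, with 4.76% of the protein-coding genes, had 8.73% of the inguinal and 7.72% of the perigonadal promoter peaks. Chromosome 3, with 4.49%, had 9.52% and 3.25%, chromosome 11, with 7.35%, had 7.94% and 11.4%, and chromosome 15, with 3.54%, had 3.97% and 6.50%. Others lay below their share of genes in both lists. Chromosome 4, with 6.07%, had 1.59% and 4.88%, and chromosome 7, with 9.27%, had 7.94% and 5.69%. The inguinal shares of chromosomes 3 and 4 rest on 12 and 2 peaks.

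The deposited focus ratio, a fraction that is higher where tags sit on the expected sides of the peak centre, had a median of 0.789 at inguinal promoters and 0.816 at the other inguinal peaks. For perigonadal peaks the medians were 0.800 and 0.833. At the Socs2 promoter it was 0.905 in the inguinal list.

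A start of another gene on the opposite strand within 1 kb was found for 10 of the 51 promoter windows reached by an inguinal peak, 19.6% (Wilson 95% interval 11.02 to 32.5). For the perigonadal peaks it was 18 of 87, 20.7% (13.5 to 30.4). In the whole table it was 15.1%, which both intervals include. The windows of shared peaks had 2 of 20 and 2 of 19.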
